A study of Homo sapiens with 6 samples.

Results

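The subject is a set of 10 transcription factors that direct cells of the gut and pancreas toward a secretory fate, followed in the human line QBC-939, labelled as cholangiocarcinoma (cancer of the bile duct). The set was ATOH1, NEUROG3, NEUROD1, INSM1, HES6, SOX4, FOXA3, SPDEF, GFI1 and CREB3L4, named one by one. Of the 10 genes, 8 had a row among the 27238 rows of the expression table, and NEUROD1 and INSM1 were not analysed here. Of these 8, 7 passed the filter on low values (a mean of at least 1 FPKM over the 6 libraries), which 11016 rows passed in all. FPKM are fragments per kilobase of transcript, scaled to the number of mapped fragments, so levels can be set side by side between genes of different length. The first group held 3 libraries from QBC-939 cells given an shRNA against BMI1 (Bmi1 shRNA), and the other held 3 libraries from QBC-939 cells given a scrambled shRNA (control), each collected after 48 h. The design text calls the scrambled control an siRNA, and the extraction protocol mentions adipose RNA, and the labels do not settle either point. The design text speaks of independent transfections of this 1 cell line. BMI1 is a RING finger subunit of Polycomb repressive complex 1, which holds developmental genes silent.

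The genes were chosen with the contrast of Bmi1 shRNA against control in view, and the values that chose them are the FPKM of these 6 libraries. Their own differences between the groups are therefore given as a description, with no test. Tests are given for other genes of the same families and pathways. These were listed by function, but with earlier results of these data known, so they are not an independent choice. The shRNA lowered its target. BMI1 had 1.49, 1.19 and 2.65 FPKM in Bmi1 shRNA libraries, against 6.65, 5.34 and 6.09 FPKM in control libraries, and so stood at 29.5% of control (log2 fold change -1.37, SE 0.19, limma, adjusted p = 0.00162). Its FPKM gave p = 0.1 in a two-sided exact permutation test, which is the lowest value available with 3 libraries a group. Libraries of one group correlated across tested genes with r from 0.983 to 0.986 and those of different groups with r from 0.948 to 0.960, and no library stood apart from its group.

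Secretory cells of the intestine arise where the bHLH factor ATOH1 is expressed, and work largely in mouse has set out the order of the factors that follow it. NOTCH signals from neighbouring cells induce the repressor HES1, which shuts off ATOH1 and NEUROG3, and cells that escape this signal become goblet, Paneth or endocrine cells. NEUROG3 marks endocrine progenitors and turns on further endocrine factors, whereas SPDEF, FOXA3 and CREB3L4 belong to mucus-producing and other cells with a large secretory apparatus. The normal bile duct also holds goblet-like and endocrine cells in its glands.

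The sequences just before the start sites of the 2 genes that initiate these programmes are shown because both genes had higher mRNA with Bmi1 shRNA. Each line gives 250 bases of RefSeq sequence (GRCh38.p14), 5′ to 3′ on the gene's own strand, ending at the base before the RefSeq start site. Capitals mark an E-box of the form CAGNTG, the kind of site that proneural bHLH dimers bind, or an N-box of the form CACNAG, the kind of site that HES repressors bind, on either strand. The forms CANCTG and CTNGTG are the same motifs read on the opposite strand, and matches of the 2 motifs may overlap.
ATOH1, chr4:93828503-93828752, forward strand: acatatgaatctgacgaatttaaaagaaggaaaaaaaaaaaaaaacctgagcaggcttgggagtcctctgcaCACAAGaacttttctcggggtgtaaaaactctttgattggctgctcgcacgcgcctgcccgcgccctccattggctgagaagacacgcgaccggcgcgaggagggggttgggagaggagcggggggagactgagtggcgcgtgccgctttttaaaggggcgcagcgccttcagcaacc
NEUROG3, chr10:69573423-69573672, reverse strand: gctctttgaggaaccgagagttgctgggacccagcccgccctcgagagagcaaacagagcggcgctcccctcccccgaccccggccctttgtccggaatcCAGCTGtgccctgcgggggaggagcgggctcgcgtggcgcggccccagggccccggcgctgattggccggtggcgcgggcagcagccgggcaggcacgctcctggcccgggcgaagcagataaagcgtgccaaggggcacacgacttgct
The ATOH1 window held 1 N-box and no E-box, and the NEUROG3 window 1 E-box and no N-box. Windows of the same length were found for 9 of the 10 genes, with INSM1 unmatched. GFI1 has several start sites, so there were 11 windows in all. The E-box was in 4 of them (NEUROG3, HES6, SOX4 and FOXA3), or 36.4%, against 42.5% of 34943 windows over all genes. The N-box was in 2 (ATOH1 and a GFI1 window), or 18.2%, against 32.1% over all genes. Counted by gene, 4 of 9 (44.4%) had an E-box and 2 of 9 (22.2%) an N-box. Counts this small are not read as a difference from promoters at large, and no use of any of these sites was measured. Of the windows with an E-box, annotated exons of the set covered all 250 bases for SOX4, 182 for FOXA3, 86 for HES6 and 0 for NEUROG3.

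Among the proneural bHLH genes the difference was large. NEUROG3 had 5.80, 6.31 and 6.39 FPKM in Bmi1 shRNA libraries, against 0.549, 0.873 and 0.731 FPKM in control libraries. Every Bmi1 shRNA library was at least 6.65 times any control library. Means were 6.17 ± 0.317 FPKM in Bmi1 shRNA libraries and 0.718 ± 0.162 FPKM in control libraries (SD, n = 3 each), a ratio of 8.60 and a log2 fold change of 2.06 on the log2(FPKM + 1) scale, where the added 1 shrinks the difference of genes at low levels. In the control libraries NEUROG3 was below 1 FPKM, so it passed the filter only through the Bmi1 shRNA libraries. In bulk RNA, more cells with NEUROG3 mRNA and more of it in each cell cannot be told apart, here and for every gene that follows.

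ATOH1 itself, the gene at the head of the secretory programme, had 4.84, 5.81 and 5.51 FPKM in Bmi1 shRNA libraries, against 2.08, 2.59 and 2.12 FPKM in control libraries. The groups were apart, with means of 5.39 ± 0.498 FPKM in Bmi1 shRNA libraries and 2.26 ± 0.285 FPKM in control libraries (SD, n = 3 each), a ratio of 2.38. ATOH1 is encoded by 1 exon in GENCODE 29 (GRCh38, chromosome 4, 93828753 to 93830964, forward strand), and NEUROG3 by 2 exons (chromosome 10, 69571698 to 69573238, reverse strand). Neither gene span overlaps another annotated gene.

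HES6, a HES family protein that opposes HES1 and favours neural and endocrine differentiation, was the most abundant of the set with Bmi1 shRNA. It had 47.6, 48.1 and 51.8 FPKM in Bmi1 shRNA libraries, against 24.4, 21.6 and 26.7 FPKM in control libraries. The ratio of means was 2.03, and the lowest Bmi1 shRNA library was 1.78 times the highest control library. HES6 lies on chromosome 2 (238238267 to 238240662, reverse strand, GRCh38) and overlaps an unnamed noncoding gene on the other strand. The strand setting of the counting step is not known here, so reads of overlapping genes cannot be told apart.

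SOX4, an HMG-box factor of progenitor cells, and FOXA3, a forkhead factor of liver, pancreas and goblet cells, differed less. SOX4 had 27.1, 26.6 and 28.5 FPKM in Bmi1 shRNA libraries, against 20.4, 23.0 and 21.2 FPKM in control libraries, a ratio of 1.27. FOXA3 had 9.78, 9.55 and 8.66 FPKM in Bmi1 shRNA libraries, against 6.52, 6.01 and 5.18 FPKM in control libraries, a ratio of 1.58. In neither gene did the groups overlap. An antisense gene overlaps SOX4, and the coding gene SYMPK lies 698 bases from FOXA3 on the other strand.

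The factors of goblet cells and of the secretory apparatus split. CREB3L4, a transcription factor anchored in the endoplasmic reticulum, had 8.14, 7.62 and 7.90 FPKM in Bmi1 shRNA libraries, against 5.93, 5.75 and 6.09 FPKM in control libraries, a ratio of 1.33. SPDEF, the ETS factor that matures goblet and Paneth cells, had 34.8, 33.7 and 36.5 FPKM in Bmi1 shRNA libraries, against 29.3, 33.9 and 30.8 FPKM in control libraries. For SPDEF the groups overlapped, since control replicate 2 was above Bmi1 shRNA replicate 2, and the ratio was 1.12. GFI1, the zinc finger repressor that keeps goblet and Paneth precursors from an endocrine fate, had 0.0534, 0.0697 and 0.0933 FPKM in Bmi1 shRNA libraries, against 0.0198, 0.0680 and 0.0108 FPKM in control libraries. Its groups overlapped too, and at this level, with the read depth unknown, no difference could be read.

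CREB3L4 shares its span on chromosome 1 (153967534 to 153974363, GRCh38) with SLC39A1 and JTB on the opposite strand. SLC39A1, a zinc transporter, had 28.7, 61.7 and 14.4 FPKM in Bmi1 shRNA libraries, against 66.4, 59.8 and 68.4 FPKM in control libraries, and did not pass the test (limma, adjusted p = 0.0819). JTB did not pass either (limma, adjusted p = 0.900). The 3 Bmi1 shRNA libraries of CREB3L4 had a coefficient of variation of 3.28%. With the strand setting unknown, reads of these overlapping genes cannot be told apart from those of CREB3L4. Their part in its level was not tested.

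**Figure D1:**
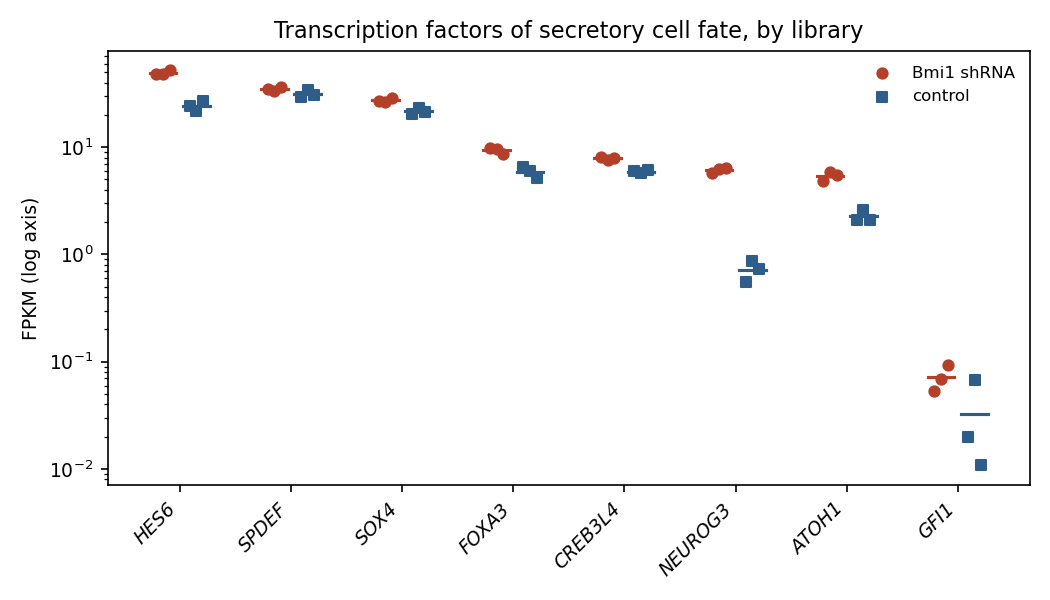
FPKM of each of the 8 genes in every library on a log axis, with Bmi1 shRNA as circles, control as squares and bars at the group means (n = 3 each). The gap is widest for NEUROG3, at 6.17 FPKM in Bmi1 shRNA libraries and 0.718 FPKM in control libraries, and the groups overlap for SPDEF and GFI1.

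The order of levels within the set differed between the groups. With Bmi1 shRNA it ran HES6, SPDEF, SOX4, FOXA3, CREB3L4, NEUROG3, ATOH1 and GFI1, and only NEUROG3 and ATOH1 were neighbours whose libraries overlapped. In control libraries it ran SPDEF, HES6, SOX4, CREB3L4, FOXA3, ATOH1, NEUROG3 and GFI1, with overlap between HES6 and SOX4 and between CREB3L4 and FOXA3. HES6 thus stood above SPDEF in every Bmi1 shRNA library and below it in every control library. NEUROG3 lay below ATOH1 in every control library while with Bmi1 shRNA the ranges of the pair overlapped. Against all tested genes, NEUROG3 was at the 55.5th percentile of mean FPKM in Bmi1 shRNA libraries and at the 0.681st percentile in control libraries, and ATOH1 at the 51.3rd and the 25.6th. NEUROG3 passed the filter only through its Bmi1 shRNA libraries, so a place near the bottom in control libraries follows from the filter.

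With Bmi1 shRNA above, the groups did not overlap for 6 of the 7 genes that passed the filter, all except SPDEF. Over all 11016 rows that passed it, 32.3% were higher without overlap and 33.1% lower without overlap. The median log2 fold change was 0.58 over the 7 genes and -0.02 over all tested rows. Since this contrast chose the genes, these values describe the choice and no more.

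Fold changes in these libraries moved with base composition. The median log2 fold change was 0.47 over the 1184 tested rows below 40% GC and -0.18 over the 1776 above 60% GC. The longest coding transcripts of the 7 tested genes had 50.7% (SOX4) to 68.4% (HES6) GC, all above the median of 50.4% over tested rows. When the trend with GC content and transcript length was subtracted, the log2 fold changes were 1.99 for NEUROG3, 1.12 for ATOH1, 0.94 for HES6, 0.71 for FOXA3, 0.67 for SOX4, 0.40 for CREB3L4 and 0.24 for SPDEF. Before the subtraction they were 2.06, 0.97, 0.99, 0.58, 0.33, 0.36 and 0.16 in the same order of genes. The difference was thus larger after the subtraction for 5 of the 7 genes, the exceptions being NEUROG3 and HES6. In that fit 19.1% of the 10225 rows with a known transcript were called higher and 20.5% lower.

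**Figure D2:**
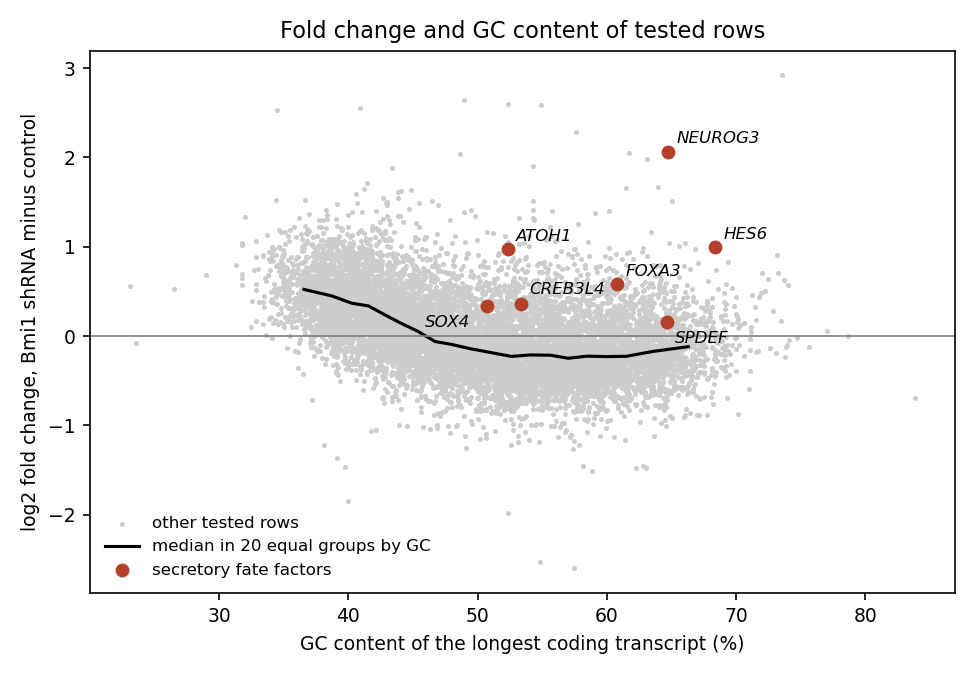
Log2 fold change, Bmi1 shRNA minus control on the log2(FPKM + 1) scale, of tested rows against the GC content of the longest coding transcript in percent, with the running median as a line and the 7 secretory fate factors marked. All 7 lie at 50.7% GC or more and above the line.

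**Figure D3:**
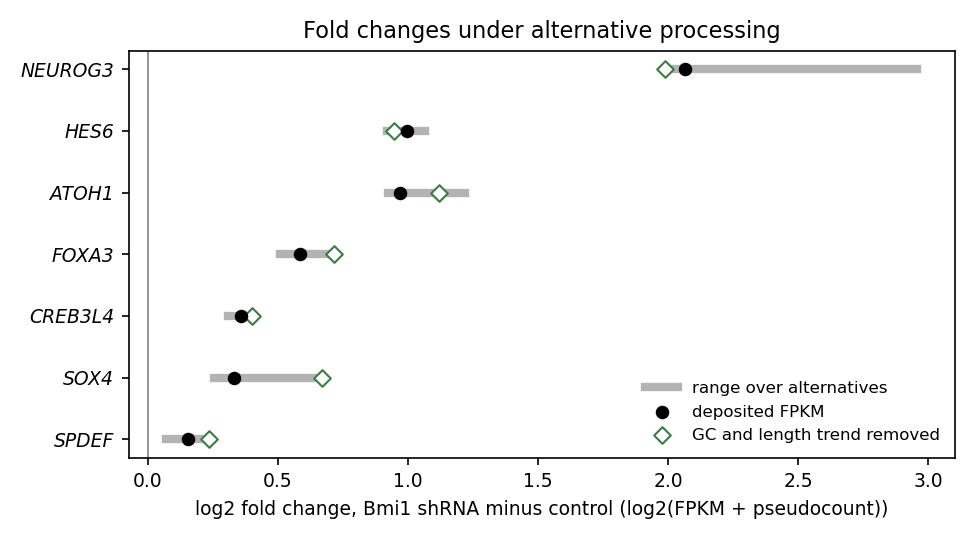
Log2 fold change, Bmi1 shRNA minus control, of the 7 tested factors as deposited (filled circles), after subtraction of the GC and length trend (open diamonds) and over all alternative settings (grey bars). Each bar stays above 0, from 0.07 for the lowest SPDEF value to 2.96 for the highest NEUROG3 value.

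Relatives of these factors in the same families were tested with limma. A call means a p under 0.05 after Benjamini-Hochberg adjustment over all 11016 rows, of which 28.6% were called higher and 28.5% lower. Of 22 listed relatives 18 had a row and 8 were tested. HES1, the NOTCH-induced repressor of ATOH1 and NEUROG3, and CREB3L2, an endoplasmic reticulum factor of secretory cartilage cells, fell, and 6 relatives did not pass. The 2 that fell are 25.0% of the 8, near the share over all rows. None rose by limma, and none of the positive log2 fold changes had an unadjusted p under 0.05. The median log2 fold change was -0.14. After subtraction of the GC and length trend 2 were called higher and 2 lower, against 19.1% and 20.5% of all rows, and the median was 0.07. HES1 had 11.7, 13.4 and 11.6 FPKM in Bmi1 shRNA libraries, against 18.5, 19.2 and 19.0 FPKM in control libraries (log2 fold change -0.59, SE 0.07, limma, adjusted p = 0.00092). HES1 was lower in 3 of 3 Bmi1 shRNA libraries and was also called lower after the GC and length trend had been subtracted (log2 fold change -0.66, limma, adjusted p = 0.00103). HES6, which acts against HES1, was higher, but this contrast chose HES6, so the opposite signs of the pair are a description only.

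FOXA1 and FOXA2 are paralogs of FOXA3 and open chromatin in endoderm. FOXA1 averaged 9.01 ± 0.605 FPKM in Bmi1 shRNA libraries and 8.30 ± 0.425 FPKM in control libraries (SD, n = 3 each; limma, adjusted p = 0.235), and FOXA2 averaged 16.4 ± 0.761 FPKM in Bmi1 shRNA libraries and 18.8 ± 1.48 FPKM in control libraries (SD, n = 3 each; limma, adjusted p = 0.0669). SOX12, in the same SOX subgroup as SOX4, averaged 15.3 ± 1.21 FPKM in Bmi1 shRNA libraries and 18.2 ± 1.57 FPKM in control libraries (SD, n = 3 each; limma, adjusted p = 0.0552). SOX12 passed without Bmi1 shRNA replicate 3 or control replicate 1 (limma, adjusted p = 0.0423 and 0.0434), and FOXA2 without control replicate 1 (0.0343). With the trend removed both took a positive sign (log2 fold changes 0.12 and 0.04, limma, adjusted p = 0.147 and 0.646), while FOXA1 then passed as higher (0.32, limma, adjusted p = 0.0066).

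Of the CREB3 family, which senses load in the secretory pathway, CREB3 averaged 52.7 ± 1.05 FPKM in Bmi1 shRNA libraries and 52.1 ± 2.29 FPKM in control libraries (SD, n = 3 each; limma, adjusted p = 0.810). CREB3L1 averaged 44.6 ± 4.73 FPKM in Bmi1 shRNA libraries and 38.4 ± 2.43 FPKM in control libraries (SD, n = 3 each; limma, adjusted p = 0.0891). It passed with the trend removed (log2 fold change 0.45, limma, adjusted p = 0.00331), which ended the call of CREB3L2 (-0.02, limma, adjusted p = 0.829). HES4 did not pass, at 11.4 ± 1.86 FPKM in Bmi1 shRNA libraries and 12.2 ± 1.06 FPKM in control libraries (SD, n = 3 each; limma, adjusted p = 0.536). With the trend removed HES4 passed as lower (log2 fold change -0.40, limma, adjusted p = 0.044). Below the filter, ATOH8, an atonal-related bHLH gene chosen after its values were seen, had 0.265, 0.342 and 0.429 FPKM in Bmi1 shRNA libraries, against 0.0585, 0.0808 and 0.0350 FPKM in control libraries. When all rows were fitted without the filter, which called 12.6% of 27238 rows higher and 10.8% lower, ATOH8 was called (limma, adjusted p = 0.00681).

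Other factors of secretory lineages moved in both directions. Of 34 listed genes 28 had a row and 11 were tested. ASCL2 and EHF rose, FOXQ1, BHLHA15, CBFA2T2 and ELF3 fell, and 5 did not pass, with a median log2 fold change of -0.16. The shares called were 18.2% higher and 36.4% lower, against 28.6% and 28.5% over all rows. ASCL2, a bHLH factor of intestinal stem cells, had 34.4, 39.3 and 36.6 FPKM in Bmi1 shRNA libraries, against 22.3, 26.6 and 23.6 FPKM in control libraries (limma, adjusted p = 0.00175). FOXQ1, a forkhead factor needed for gastric mucin in mouse, had 26.5, 26.9 and 27.1 FPKM in Bmi1 shRNA libraries, against 41.9, 48.1 and 48.4 FPKM in control libraries (limma, adjusted p = 0.000458). BHLHA15, also called MIST1 and a bHLH factor of exocrine cells, averaged 0.630 ± 0.214 FPKM in Bmi1 shRNA libraries and 1.47 ± 0.320 FPKM in control libraries (SD, n = 3 each; limma, adjusted p = 0.00864). BHLHA15 was below 1 FPKM in every Bmi1 shRNA library, so it passed the filter only through the control libraries.

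The remaining calls in that list were weak. EHF, an epithelial ETS factor, had a log2 fold change of 0.35 and was not called without Bmi1 shRNA replicate 1 or 2 or control replicate 1 or 3 (limma, adjusted p up to 0.0788) or with the trend removed (0.451). CBFA2T2, a corepressor, had a log2 fold change of -0.32 and was not called without Bmi1 shRNA replicate 1 or 3 or control replicate 1 or 3 (limma, adjusted p up to 0.105). Its Bmi1 shRNA libraries were all below 1 FPKM, so it passed the filter only through the control libraries. CBFA2T2 and ELF3, an epithelial ETS factor, were at 0.04 and 0.08 with the trend removed (limma, adjusted p = 0.822 and 0.403). XBP1, which expands the endoplasmic reticulum, averaged 245 ± 44.4 FPKM in Bmi1 shRNA libraries and 236 ± 4.2 FPKM in control libraries (SD, n = 3 each; limma, adjusted p = 0.814). The others that did not pass were PDX1, MNX1, SOX9 and KLF4.

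Endocrine factors known to act downstream of NEUROG3 lay below the filter. The genes described here were chosen from the list after their values were seen. PAX4, a paired-box factor that NEUROG3 activates, had 0.584, 0.463 and 0.599 FPKM in Bmi1 shRNA libraries, against 0.0501, 0 and 0.0374 FPKM in control libraries, and was called in the fit without the filter (limma, adjusted p = 0.00158). MYT1, a zinc finger factor of endocrine progenitors, had 0.664, 0.645 and 0.702 FPKM in Bmi1 shRNA libraries, against 0.400, 0.291 and 0.459 FPKM in control libraries (no filter; limma, adjusted p = 0.0282). RFX6, an islet factor, was not called (no filter; limma, adjusted p = 0.106), with 0.0775, 0.162 and 0.0594 FPKM in Bmi1 shRNA libraries, against 0.0123, 0 and 0.0402 FPKM in control libraries. NKX2-2, NKX6-1 and PAX6 were listed at 0 in all Bmi1 shRNA libraries, and ISL1 overlapped between the groups.

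**Figure D4:**
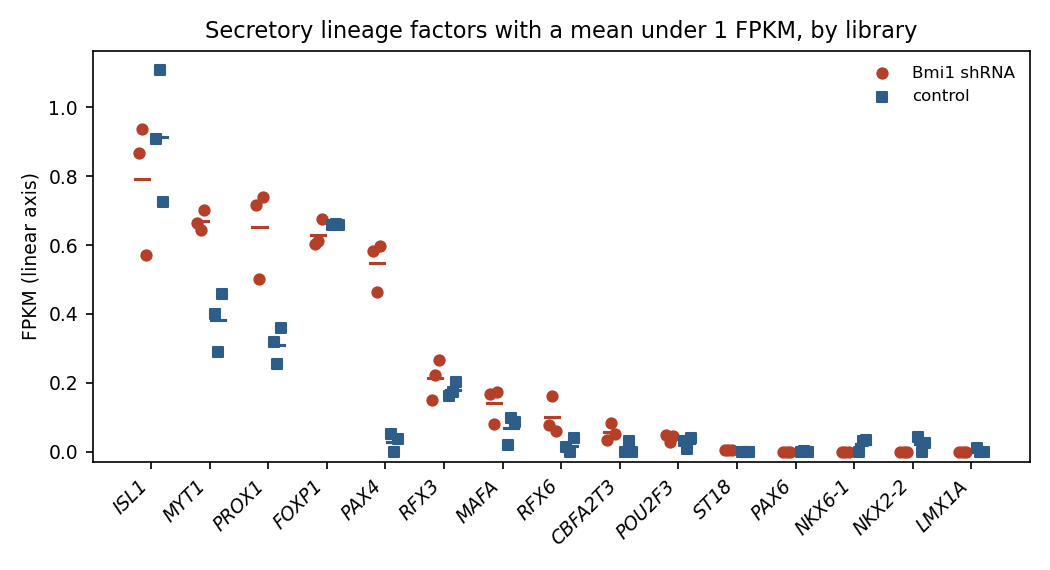
FPKM on a linear axis, by library, of listed secretory lineage factors with a mean under 1 FPKM, with Bmi1 shRNA as circles, control as squares and bars at the group means (n = 3 each). PAX4 lies between 0.463 and 0.599 FPKM in Bmi1 shRNA libraries and at 0.0501 FPKM or less in control libraries, while the groups overlap for ISL1.

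The NOTCH pathway restrains ATOH1 and NEUROG3. Of 34 listed genes 33 had a row and 22 were tested, of which 5 rose, 12 fell and 5 did not pass. That is 22.7% higher and 54.5% lower, against 28.6% and 28.5% over all rows. The median log2 fold change was -0.20. After subtraction of the trend 5 were called higher and 7 lower, the median was -0.02, and 19.1% of all rows were called higher and 20.5% lower. Among ligands, JAG1 had 2.60, 2.65 and 3.04 FPKM in Bmi1 shRNA libraries, against 4.40, 4.81 and 4.42 FPKM in control libraries (limma, adjusted p = 0.00118). Among receptors, NOTCH2 averaged 1.76 ± 0.312 FPKM in Bmi1 shRNA libraries and 3.09 ± 0.285 FPKM in control libraries (SD, n = 3 each; limma, adjusted p = 0.00411). PSEN2 and NCSTN, subunits of the gamma-secretase that frees the NOTCH intracellular domain, fell by 0.66 and 0.48 on the log2 scale, and MAML1, a coactivator of that domain, fell by 0.61. All 5 of these genes were also called lower with the trend removed, at smaller log2 fold changes of -0.25 for JAG1, -0.20 for NOTCH2, -0.44 for PSEN2, -0.27 for NCSTN and -0.22 for MAML1. Also among the 12 that fell were NUMB, NUMBL and NRARP, which are known to restrain NOTCH signalling, named after their values were seen. Their log2 fold changes were -0.46, -0.44 and -0.18 (limma, adjusted p = 0.0324, 0.00441 and 0.04999). With the trend removed NUMB and NRARP were called lower (-0.48 and -0.17, limma, adjusted p = 0.0303 and 0.0382) and NUMBL was not called (-0.13, limma, adjusted p = 0.114).

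Of the NOTCH genes that rose, NEURL1 differed most. NEURL1, a ubiquitin ligase that acts on NOTCH ligands, had 4.41, 4.56 and 4.92 FPKM in Bmi1 shRNA libraries, against 0.817, 0.673 and 0.829 FPKM in control libraries (log2 fold change 1.67, SE 0.07, limma, adjusted p = 0.000125). LFNG, a glycosyltransferase that changes which ligands NOTCH receptors answer to, had 22.0, 21.9 and 23.6 FPKM in Bmi1 shRNA libraries, against 14.5, 14.8 and 15.1 FPKM in control libraries (limma, adjusted p = 0.000515). PSENEN, a further gamma-secretase subunit, rose by 0.50 and ADAM10, the protease that cuts the receptor first, by 0.48. RBPJ, the DNA-binding partner of NOTCH, rose to 1.86, 1.73 and 1.82 FPKM in Bmi1 shRNA libraries, against 0.857, 0.804 and 0.210 FPKM in control libraries (limma, adjusted p = 0.00671), and did not pass with the trend removed (0.0568). NEURL1 and RBPJ were below 1 FPKM in every control library, so they passed the filter only through the Bmi1 shRNA libraries. Both are counted in the share of NOTCH genes called higher. Among those that did not pass were APH1A, RFNG, DTX4 and MIB2. DLL1, a ligand that NEUROG3 and ATOH1 activate in mouse, lay below the filter. It was chosen after its values were seen, and had 0.470, 0.395 and 0.465 FPKM in Bmi1 shRNA libraries, against 0.115, 0.136 and 0.151 FPKM in control libraries (no filter; limma, adjusted p = 0.0029).

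Proteins that pair with the proneural factors or oppose them were measured as well. Of 15 listed E proteins, ID proteins, HEY repressors and TLE corepressors, 14 had a row and 8 were tested. TCF12, ID2 and AES rose, TLE1 fell and 4 did not pass, with a median log2 fold change of -0.07. The shares called were 37.5% higher and 12.5% lower, against 28.6% and 28.5% over all rows. TLE1, a corepressor that HES1 recruits, had 8.23, 9.18 and 9.75 FPKM in Bmi1 shRNA libraries, against 16.7, 19.0 and 18.9 FPKM in control libraries (log2 fold change -0.93, SE 0.08, limma, adjusted p = 0.000428). AES, now TLE5 and a short TLE protein that interferes with the longer ones, had 58.0, 62.4 and 61.8 FPKM in Bmi1 shRNA libraries, against 45.1, 48.0 and 48.8 FPKM in control libraries (limma, adjusted p = 0.00269). Both held with the trend removed (log2 fold changes -0.61 and 0.46).

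Of the E proteins, the dimer partners of ATOH1 and NEUROG3, TCF3 averaged 16.8 ± 1.86 FPKM in Bmi1 shRNA libraries and 18.0 ± 0.986 FPKM in control libraries (SD, n = 3 each; limma, adjusted p = 0.413), and passed as higher once the trend was removed (log2 fold change 0.25, limma, adjusted p = 0.0154). TCF12 had a log2 fold change of 0.49, but its call ended without Bmi1 shRNA replicate 1 or 2 or any control replicate (limma, adjusted p up to 0.0965) and with the trend removed (0.243). ID2, which sequesters E proteins, had a log2 fold change of 0.25. Its call ended without Bmi1 shRNA replicate 1 or 2 or control replicate 2 or 3 (limma, adjusted p up to 0.0658), with libraries scaled to one total (0.0663) and with quantile normalization (0.153). ID1, TLE3 and TLE4 did not pass, and HEY1, HEY2 and HEYL were below the filter.

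**Figure D5:**
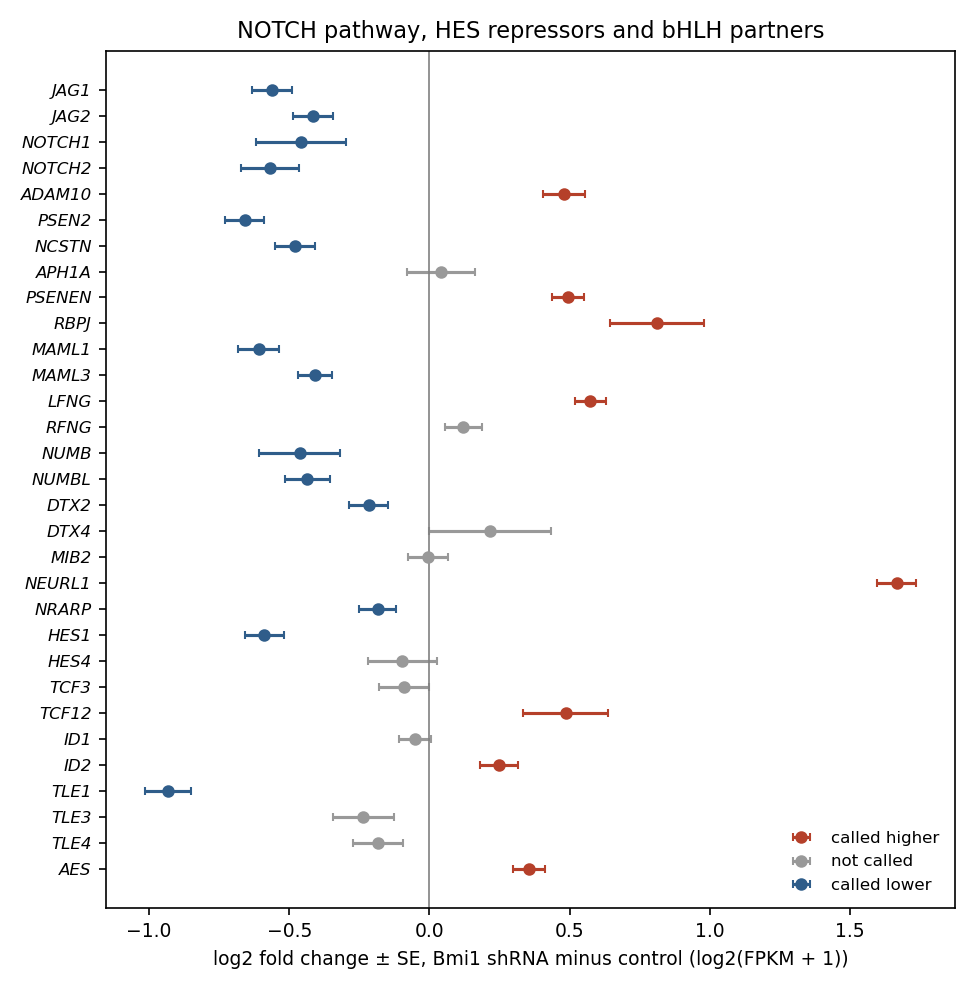
Log2 fold change with its standard error, Bmi1 shRNA minus control on the log2(FPKM + 1) scale (3 libraries each), of tested NOTCH pathway genes, HES1 and HES4, and bHLH partners and inhibitors, coloured by limma's call. NEURL1 lies farthest to the right at 1.67 and TLE1 farthest to the left at -0.93.

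Products by which secretory cells are recognised moved in both directions. Of 46 listed products 35 had a row and 14 were tested, of which 8 rose, 4 fell and 2 did not pass. That is 57.1% higher and 28.6% lower, against 28.6% and 28.5% over all rows. After subtraction of the trend 7 were called higher and 6 lower, and the median log2 fold change was 0.10 in place of 0.50. In that fit 19.1% of all rows were called higher and 20.5% lower. SPINK4, a goblet cell protease inhibitor, had 7.66, 8.67 and 9.24 FPKM in Bmi1 shRNA libraries, against 0.646, 0.794 and 0.317 FPKM in control libraries (limma, adjusted p = 0.000193). SPINK4 was below 1 FPKM in every control library, so it passed the filter only through the Bmi1 shRNA libraries. TFF3, TFF1, AGR2 and SCGN rose too, with log2 fold changes of 2.58, 0.90, 0.81 and 1.12. The value of AGR2 was 0.29 with the trend removed. The remaining products that rose were REG4, at 10.3 ± 0.636 FPKM in Bmi1 shRNA libraries and 6.74 ± 0.374 FPKM in control libraries, the endocrine hormone CCK, at 2.22 ± 0.146 FPKM in Bmi1 shRNA libraries and 1.21 ± 0.372 FPKM in control libraries, and AGR3 (SD, n = 3 each; limma, adjusted p = 0.00114, 0.0109 and 0.0135). AGR3 turned from a log2 fold change of 0.45 to -0.58 with the trend removed (limma, adjusted p = 0.00176). ST6GALNAC1, a sialyltransferase of mucins, fell by 0.61 and DDC, an enzyme of serotonin synthesis, by 0.39. VGF and PLA2G2A were also called lower, VGF not without Bmi1 shRNA replicate 1 or 3 or any control replicate (limma, adjusted p up to 0.110) and PLA2G2A not without Bmi1 shRNA replicate 1 or 2 or control replicate 1 or 3 (0.0934). Of genes that mark mature goblet and endocrine cells, MUC2 averaged 0.0043 FPKM in Bmi1 shRNA libraries and 0.0014 FPKM in control libraries, and CHGA averaged 0.0069 FPKM in Bmi1 shRNA libraries and 0.013 FPKM in control libraries.

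The genes whose profile over the 6 libraries was most like that of NEUROG3 were MDK, MMP1, TFRC, NEURL1 and FXYD2. The measure was the root mean square difference of log2(FPKM + 1) after centring each gene on its own mean, and it ran from 0.0819 for MDK, the growth factor midkine, to 0.236 for FXYD2. The closest to ATOH1 were NUF2 (0.0311), SHLD2, PBK, CRNKL1 and EIF5B, and the closest to HES6 were ELN-AS1 (0.0416), ARL6IP1, TBC1D23, NSA2 and IER3IP1. With 2 groups this measure mostly matches the size of the difference between them. The 5 genes closest to ATOH1 had 37.9% to 41.7% GC, against 52.4% for ATOH1, and log2 fold changes of 0.41 to 0.71 with the trend removed, against 1.12 for ATOH1.

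Genes next to the set on the chromosome showed no shared direction. Of the 16 flanking coding genes of the 8 factors with a row 11 were tested, 4 rose, 5 fell and 2 did not pass, with log2 fold changes from -0.55 to 0.71 and a median of -0.19. Over all tested rows 28.6% were called higher and 28.5% lower. Of the 9 calls among flanking genes 6 ended with the trend removed, and the 3 also called then were TSPAN15, FAM241B and CDKAL1. Next to NEUROG3, TSPAN15 fell by 0.37 and FAM241B rose by 0.60 on the log2 scale (limma, adjusted p = 0.00105 and 0.000757). PER2, the clock gene 3375 bases from HES6, fell by 0.55 while HES6 was higher (limma, adjusted p = 0.0011). With the trend removed PER2 was at -0.17 and did not pass (limma, adjusted p = 0.0696).

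The labelled cell type was compared with marker genes. Of 14 biliary epithelial markers with a row, 13 averaged at least 1 FPKM, among them KRT19 (211 FPKM in Bmi1 shRNA libraries and 287 FPKM in control libraries) and EPCAM (169 FPKM in Bmi1 shRNA libraries and 164 FPKM in control libraries). KRT7 averaged 2.80 FPKM in Bmi1 shRNA libraries and 2.74 FPKM in control libraries. CLDN4 ran from 0.687 to 115 FPKM over the control libraries. Of these 13 markers 2 were called higher (15.4%) and 4 lower (30.8%), against 28.6% and 28.5% over all tested rows. Endothelial markers summed to at most 0.0263 FPKM in Bmi1 shRNA libraries and 0.0463 FPKM in control libraries, and fibroblast markers to at most 0.452 FPKM in Bmi1 shRNA libraries and 0.416 FPKM in control libraries. Of leukocyte markers LYZ, also a product of secretory epithelium, and CD68 were above 1 FPKM, while LST1 averaged under 0.02 FPKM in both groups. Hepatocyte markers moved with the groups. Of 7 with a row 3 were tested and all 3 rose (TTR, SERPINA1 and APOH), against 28.6% of all tested rows called higher. With the trend removed APOH was called lower (log2 fold change -0.38, limma, adjusted p = 0.00298). The list summed to between 290 and 308 FPKM in Bmi1 shRNA libraries and between 212 and 225 FPKM in control libraries, and CYP3A4, TAT and F2 averaged under 0.1 FPKM in both groups. AHSG averaged 0.383 ± 0.0307 FPKM in Bmi1 shRNA libraries and 0.144 ± 0.0450 FPKM in control libraries (SD, n = 3 each; no filter, limma, adjusted p = 0.00748). The part of such cells in the levels of FOXA3, which hepatocytes also express, was not tested.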

How the data were processed

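RNA of 6 libraries was sequenced by the authors and deposited as one table of FPKM per gene name. Per the labels' protocols, poly(A) RNA was made into paired-end libraries. The tools named in the submitters' processing notes are HISAT2 2.0, StringTie 1.3.0 and Bowtie 0.12.2, whose roles are not stated. The build named there is mm8, of mouse, although the organism is human. The table has no coordinates, and positions and GC content come from GENCODE 29 (GRCh38) by symbol (92.8% of tested rows). Columns Sh and Sc were matched to the Bmi1 shRNA and scrambled libraries, by number. Read depth is unknown: at most 3.46% of rows under 0.1 FPKM shared the commonest ratio to control replicate 1 at 3 decimals, so reads could not be recovered. The deposited FPKM summed to 352800 to 360371 in Bmi1 shRNA libraries and 332910 to 341268 in control libraries. Repeated names (3646 rows) were tested but not named.

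Log2(FPKM + 1) values were compared with limma 3.58.1 (R 4.3.3), eBayes with a trend, Benjamini-Hochberg adjustment, called under 0.05. Transfections are described as independent, and p-values measure the spread between these 3 libraries a group. The trend was removed by natural splines of GC content and log2 length (5 degrees of freedom each). Steps were tested on simulated data. Alternatives covered pseudocount, filter, scaling, replicate block, trend and each library left out. The members and the 7 lists were chosen with earlier results of these data known. Genes named are the set, BMI1, tested relatives, up to 5 called genes without overlap per list and direction, the 5 nearest profiles of 3 genes, markers, and others stated as chosen after their values were seen, besides flanking and overlapping genes. Some listed genes are counted in their lists but not reported here by name.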

Additional observations from a re-analysis of the deposited data

How the results depend on the processing

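The log2 fold changes of the 7 tested factors stayed positive under all alternatives run, from 1.99 to 2.96 for NEUROG3, 0.92 to 1.22 for ATOH1, 0.92 to 1.07 for HES6, 0.51 to 0.71 for FOXA3, 0.31 to 0.41 for CREB3L4, 0.25 to 0.67 for SOX4 and 0.07 to 0.24 for SPDEF. BMI1 was called lower in each, at -1.58 to -1.22 without 1 library; a filter at 5 FPKM removed it, as it did NEUROG3 and ATOH1. Over all genes, 3152 were called higher and 3143 lower; after subtraction of the GC and length trend 1957 were higher, with a filter at 5 FPKM 1631 were higher and 1847 lower, and with the replicate block and the trend removed 1573 were higher and 1568 lower. Libraries scaled to a total of 1000000 shifted the median log2 fold change to -0.10, with 2649 higher and 3708 lower. No scaling tried moved that median by over 0.1 or the share of higher calls by over 10 percentage points. The replicate number did not pair the libraries (r of same-numbered deviations 0.004, -0.08 and -0.02), and with it as a block 2870 were higher and 2788 lower.

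Small list counts moved as follows. Of the relatives, 2 were higher with the trend removed (2 with the block as well, with 1 lower), 1 with no filter and 1 with upper quartile scaling, and 1 was lower with a filter at 5 FPKM, 4 scaled to one total and 2 to 4 without 1 library. Of the other lineage factors, 1 was higher and 2 were lower with the trend removed, with or without the block, 4 were higher with no filter and 1 scaled to one total, 2 lower with a filter at 5 FPKM, and 1 to 2 higher without 1 library. Of bHLH partners, 1 was higher and 4 lower with quantile normalization, and 1 to 3 higher and 1 to 2 lower without 1 library. Of NOTCH genes, 2 were higher and 5 lower with a filter at 5 FPKM, 10 higher with no filter, 7 lower with the trend removed, and 3 higher and 4 lower with the block added. Of products, 5 were higher and 2 lower with a filter at 5 FPKM, 2 lower with no filter, 2 with the replicate block and 2 to 3 without 1 library. Of tuft cell genes, 0 were lower with the trend removed, with or without the block, or with a filter at 5 FPKM, and 2 with no filter. Of absorptive genes, 2 were lower with a filter at 5 FPKM, 3 lower and 2 higher with no filter, and 3 to 4 lower without 1 library. A stricter filter leaves fewer genes to test; otherwise the cause was not tested.

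Of 91 tested genes in the lists and marker sets, 20 turned sign with the trend removed, 6 of them called before it and 6 after it. Those called after it were TCF3 (0.25), MIB2 (0.21), AGR3 (-0.58), LYZ (-0.53), MMP7 (-0.44) and APOH (-0.38). Others, which turned with and without the block, included CBFA2T2 (0.0401), CDHR5 (0.0227), ELF3 (0.0788), FOXA2 (0.0355) and SOX12 (0.117). CREB3, not called, turned to -0.0842 with quantile normalization and -0.0726 scaled to one total, and ran from -0.0131 (without control replicate 3) to 0.0487 without 1 library. HES4, not called, ran from -0.1823 to 0.031 (without Bmi1 shRNA replicate 1). Read depth is unknown, so values near 0 carry no counting interval.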

Other observations

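Absorptive cells are the alternative fate to secretory cells in the intestine. Of 24 listed absorptive genes 19 had a row and 9 were tested, of which 1 rose, 5 fell and 3 did not pass (limma, adjusted p under 0.05), with a median log2 fold change of -0.22, against -0.02 over all tested rows. That is 11.1% higher and 55.6% lower, against 28.6% and 28.5% over all tested rows. The 3 that did not pass were KRT20, CA2 and ANPEP. KRT20 averaged 154 FPKM in Bmi1 shRNA libraries and 155 FPKM in control libraries, and CA2 averaged 30.6 FPKM and 33.8 FPKM. With the GC and length trend removed KRT20 and CA2 were called lower (log2 fold changes -0.25 and -0.42, limma, adjusted p = 0.0383 and 0.000931), and ANPEP was not called. GATA6, an endodermal zinc finger factor, had 8.43, 8.23 and 9.04 FPKM in Bmi1 shRNA libraries, against 14.2, 14.4 and 15.4 FPKM in control libraries (limma, adjusted p = 0.000401). SLC5A1, the intestinal sodium-glucose cotransporter, fell by 0.39 on the log2 scale. HNF4A, a nuclear receptor of gut and liver, averaged 0.989 ± 0.131 FPKM in Bmi1 shRNA libraries and 1.76 ± 0.192 FPKM in control libraries (SD, n = 3 each; limma, adjusted p = 0.00384), and did not pass after subtraction of the GC and length trend (0.342). Its mean with Bmi1 shRNA was below 1 FPKM, so it passed the filter only through the control libraries. VIL1 was not called without Bmi1 shRNA replicate 1 or 2 or control replicate 2 or 3 (limma, adjusted p up to 0.107), and CDHR5 not without Bmi1 shRNA replicate 1 or 3 or control replicate 1 or 3 (0.0842). DPP4, a brush border peptidase, went the other way, with 17.9, 19.2 and 19.5 FPKM in Bmi1 shRNA libraries, against 7.29, 7.63 and 6.66 FPKM in control libraries (limma, adjusted p = 0.000212).

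Tuft cells, a chemosensory lineage of the same epithelium, are marked by POU2F3, which averaged 0.04 FPKM in Bmi1 shRNA libraries and 0.026 FPKM in control libraries. Of 17 listed tuft cell genes 12 had a row and 3 were tested. SUCNR1, the succinate receptor, had 13.1, 11.9 and 13.1 FPKM in Bmi1 shRNA libraries, against 1.42, 1.16 and 1.51 FPKM in control libraries (limma, adjusted p = 7.9e-05). ALOX5 also rose, by 0.47 on the log2 scale, and PTGS1 fell by 0.48 and did not pass after that subtraction (limma, adjusted p = 0.0576). GIP, a hormone of intestinal K cells chosen after its values were seen, had 0.540, 0.677 and 0.628 FPKM in Bmi1 shRNA libraries, against 0.105, 0.228 and 0 FPKM in control libraries (no filter on low values; limma, adjusted p = 0.0082).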
